A study of Mus musculus with 12 samples.

Results

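Adipogenesis and lipid storage genes were examined in mouse muscle fibro-adipogenic progenitors (FAPs), the resident mesenchymal cells of skeletal muscle that can become adipocytes or fibroblasts. The set was a list of 36 gene symbols matched to the gene identifiers of the count files, out of 55335 genes in those files. It holds 8 adipogenic regulators, 4 adipokines, 4 genes of fatty acid uptake and binding, 6 lipid droplet coat genes, 5 genes of triglyceride synthesis, 3 lipases and 6 genes of fatty acid synthesis. The series asks which genes lie downstream of Bap1, a nuclear deubiquitinase, and of Smn, the survival motor neuron protein.

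The 12 RNA-seq libraries form 4 groups of 3, all from limb muscle cells sorted as live, Lin-, Vcam- and Sca1+ and then cultured in alpha-MEM with fetal bovine serum. The labels name no adipogenic medium. WT cells received ethanol, and Bap1KO cells received 1 µM 4-hydroxytamoxifen (4-OHT), which activates a Cre recombinase that deletes Bap1; the medium was replaced after 24 h. In Smn1OE, 4-OHT was combined with a human SMN construct, and in Smn1OE_K186R with the same construct carrying the K186R change (lysine to arginine). The source label names a Prrx1Cre;Bap1f/f line, in which Cre is driven in limb mesenchyme, whereas the treatment text names Rosa-CreER, in which Cre is present broadly and acts once 4-OHT is given. No group carried an empty vector and no group received 4-OHT without the deletion. The labels do not say whether the 3 libraries of a group came from separate animals, so the p-values measure the spread between these libraries, which may be technical.

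WT and Bap1KO shared culture media batches A, B and C (replicates 1, 2 and 3), and the SMN groups shared batches D, E and F. Xist, the X-inactivation RNA of female cells, was at 197 to 305 CPM (read counts scaled to a common library total after TMM normalisation) in the 6 WT and Bap1KO libraries and at most 0.113 CPM in the 6 SMN libraries. The 4 Y-linked genes measured had no read in any WT or Bap1KO library and were read in all 6 SMN libraries. In each comparison of an SMN group with WT or Bap1KO, the vector, the media batches and the sex of the cells therefore cannot be told apart.

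Adipogenesis runs through a transcription factor cascade: C/EBPβ and C/EBPδ act early, and PPARγ and C/EBPα follow and hold the adipocyte state, in which genes for adipokines, fatty acid uptake and droplet coats are switched on. Fatty acids made from acetyl-CoA or taken up from outside are joined to glycerol as triglyceride, stored in lipid droplets whose surface carries perilipins, and released again by lipases. In muscle, FAPs are the known source of the fat cells that appear between fibres in disease and after injury.

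To place the regulators beside the genes they are known for, the 250 bases before the annotated start of 4 members are shown, from the RefSeq promoter windows (GRCm38.p6). They were chosen as the adipocyte-type start of Pparg (start 3 of those listed), a droplet coat gene of low level (Plin1) and one of high level (Plin2), and the adipokine Adipoq. Capitals mark matches to a C/EBP pattern (TTGCNNAA) or an E-box (CACGTG) on either strand. Each is written 5′ to 3′ on the gene's strand.
Pparg, start 3, chr6:115421816-115422065, plus strand: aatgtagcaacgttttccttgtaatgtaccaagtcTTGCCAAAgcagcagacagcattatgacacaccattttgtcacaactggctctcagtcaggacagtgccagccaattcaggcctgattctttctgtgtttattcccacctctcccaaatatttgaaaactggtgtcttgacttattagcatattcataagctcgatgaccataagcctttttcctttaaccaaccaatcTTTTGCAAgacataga
Plin1, chr7:79732777-79733026, minus strand: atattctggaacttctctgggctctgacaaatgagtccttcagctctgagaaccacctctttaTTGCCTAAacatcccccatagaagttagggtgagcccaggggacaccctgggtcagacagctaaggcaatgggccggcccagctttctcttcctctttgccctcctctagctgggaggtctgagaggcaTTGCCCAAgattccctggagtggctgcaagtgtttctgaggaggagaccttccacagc
Plin2, chr4:86670060-86670309, minus strand: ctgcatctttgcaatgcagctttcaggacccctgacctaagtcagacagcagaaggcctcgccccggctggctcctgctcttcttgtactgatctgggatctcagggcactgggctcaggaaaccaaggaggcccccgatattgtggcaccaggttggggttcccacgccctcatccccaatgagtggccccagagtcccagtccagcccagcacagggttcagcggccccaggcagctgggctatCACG
Adipoq, chr16:23146286-23146535, plus strand: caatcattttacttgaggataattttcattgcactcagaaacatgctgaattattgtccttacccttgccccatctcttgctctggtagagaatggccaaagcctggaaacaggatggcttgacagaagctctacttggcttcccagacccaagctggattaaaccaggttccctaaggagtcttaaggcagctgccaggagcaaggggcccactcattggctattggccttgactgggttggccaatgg

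The Plin2 E-box runs past the start, so its last bases lie outside the printed stretch. Of the 36 members, 27 had a RefSeq window, and windows of 300 bases (250 before and 50 after the start) were searched on both strands. Cebpd, Dgat1, Dgat2, Ebf2, Fabp4, Fabp5, Lpl, Scd1 and Scd2 had no window, so the search says nothing about them. The C/EBP pattern was found in windows of 6 of the 27 members (22.2%: Cidec, Gpam, Lep, Plin1, Pparg and Zfp423) and of 12.2% of all 27025 genes with a window. In 29 of the 35 member windows, bases after the start were found in an annotated transcript of the gene. The matching windows of Cidec and Lep were not among these. The E-box was found in 4 of the 27 (14.8%: Klf15, Lipe, Mgll and Plin2) and in 8.09% of all genes. No member window held the sterol response element core TCACNCCAC (1.44% of all genes) or the PPAR direct repeat AGGTCANAGGTCA (0.0481%). No match of one pattern overlapped a match of another in these windows, and a match describes the letters of a window, not a bound site.

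Library totals (reads counted in genes) ran from 51198342 to 68216089, so 3 reads, the upper limit that a count of 0 allows, correspond to 0.0436 to 0.0568 CPM. Bap1 itself was at 50.5 ± 1.32 CPM (SD, n = 3) in the ethanol controls, at 40.3 ± 1.74 CPM in Bap1KO, and at 49.1 ± 1.4 and 45.3 ± 3.15 CPM with the SMN and K186R vectors. Smn1, the mouse gene to which reads of the human construct can be assigned, rose from 32.9 ± 2.31 CPM in Bap1KO to 4757 ± 907 and 3940 ± 363 CPM. The Bap1 level was lower in Bap1KO than in WT (log2 difference -0.32, edgeR adjusted p = 0.0139). Against Bap1KO it was higher in Smn1OE (0.28, adjusted p = 0.00924) and differed by 0.17 in Smn1OE_K186R (adjusted p = 0.081). Neither SMN group was called against WT for Bap1 (-0.04, adjusted p = 0.638, and -0.16, adjusted p = 0.0767). Whether the SMN groups carried the deletion to the same extent as Bap1KO was not tested. Principal component 1 separated the SMN libraries from the others, and Bap1KO replicate 2 (score -10.7) lay closer to them than Bap1KO replicates 1 and 3 (-50.9 and -31.0).

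The FAP label was checked against 8 markers. Their summed level was 14290 to 20930 CPM in WT and 8980 to 16400 CPM in Bap1KO; with a vector it was 3373 to 5284 CPM (Smn1OE) and 4049 to 5752 CPM (Smn1OE_K186R), and none was at 0. In Smn1OE against Bap1KO, 6 of the 8 fell and Cd34 rose; in Smn1OE_K186R against Bap1KO, 5 fell and Cd34 rose. In Bap1KO against WT, 1 of the 8, Pdgfra, fell. Pdgfra, the receptor that marks FAPs, was at 90.9 ± 15.03 CPM in WT and 33.8 ± 6.81 CPM in Bap1KO, and at 18.1 ± 3.62 and 22.8 ± 6.88 CPM with the SMN and K186R vectors. Endothelial markers summed to 2.598 to 6.485 CPM, myogenic markers to 1.36 to 4.58 CPM and Schwann cell markers to 3.97 to 13.96 CPM. The 5 pericyte markers summed to 65.99 to 97.07 CPM over the 12 libraries, of which Cspg4 was at 50.2 to 85.0 CPM. A list of 9 macrophage markers summed to 22.4 to 36.5 CPM over the same libraries. Of the 9 macrophage markers, 6 were tested. Cd68 rose from 4.86 CPM in Bap1KO to 10.8 and 8.94 in the SMN groups, and Csf1r and Lyz2 fell in each. Ptprc was also called higher in each, but the filter on low counts kept it only through the SMN groups, so that call is not used. It had 1 read in Bap1KO, 50 in Smn1OE and 20 in Smn1OE_K186R, each summed over 3 libraries. The defining macrophage genes Adgre1, Itgam and Fcgr1 had means of at most 0.0588 CPM in every group. The 3 tenocyte markers summed to 29.2 to 46.0 CPM in WT and 22.3 to 39.6 CPM in Bap1KO. With a vector the sums were 11.3 to 11.98 CPM (Smn1OE) and 11.2 to 13.3 CPM (Smn1OE_K186R), and Tnmd fell in each SMN group. Tnmd made up most of the WT and Bap1KO sums (means 29.2 and 17.8 CPM). Scx did not share this fall: its mean was 4.19 CPM for WT, 8.85 for Bap1KO, and 6.78 and 6.59 with the SMN and K186R vectors. Against WT, Scx was called higher in Bap1KO and in each SMN group. Mkx means were 2.32, 1.51, 1.47 and 1.32 CPM in the same order. Mitochondrial genes took 1.29 to 1.67% of reads in the WT and Bap1KO libraries and 1.92 to 2.15% in the SMN libraries, and unaligned reads were 1.22 to 1.78% and 2.82 to 3.71%. The mature adipocyte markers are themselves members of the set: their sum was 9.92 to 16.4 CPM for WT and 8.63 to 14.9 CPM for Bap1KO, then 2.94 to 8.98 CPM for Smn1OE and 2.44 to 6.15 CPM for Smn1OE_K186R, with Lep at 0 throughout. In bulk RNA, fewer cells of a type and less RNA per cell cannot be told apart. The part of these shifts in the results below was not tested.

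Per kilobase of exon, the set spanned a wide range of levels. In WT the highest levels were those of the stearoyl-CoA desaturase gene Scd2 (80.5 CPM per kb), Cebpb (55.7), Scd1 (44.97) and Plin2 (43.2), which coats droplets in most cell types. In Bap1KO Scd2 (66.9) again stood above Plin2 (51.9). With a vector Plin2 was highest, at 149.7 CPM per kb in Smn1OE and 131 in Smn1OE_K186R, followed by the citrate lyase gene Acly (39.6 and 42.1) and Scd2 (36.9 and 41.8). Genes tied to mature fat cells lay lower over the 12 libraries, to differing extents. Adipoq was at 2.00 CPM per kb, Plin1 at 0.322, Cidec at 0.171 and Retn at 0.0727. Cfd stood above them at 4.24, and in WT it was at 9.045, beside 8.558 for Cebpa. Pparg was at 4.05 and Fabp4 at 3.44 CPM per kb. Lep, the leptin gene, had 0 reads in all 12 libraries, and Plin5 had 0 reads in WT and 2 in Bap1KO, and 11 (Smn1OE) and 12 (Smn1OE_K186R) with a vector, each summed over 3 libraries, so neither passed the filter on low counts and 34 members were tested. The heatmap of the set by library shows the tested members by role.

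**Figure D1:**
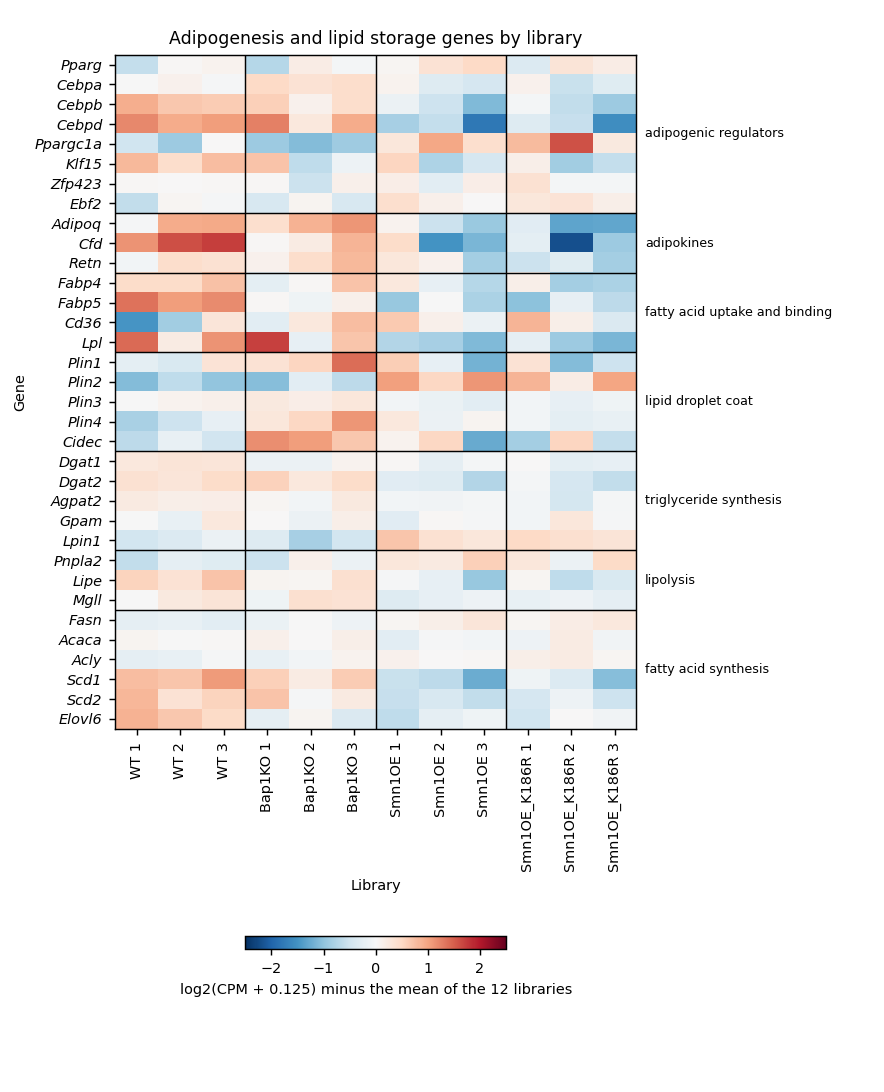
Level of each of the 34 tested members (rows, grouped by role) in each of the 12 libraries (columns), as log2(CPM + 0.125) minus that gene's mean over the 12 libraries; red is above and blue below the mean. Plin2 and Lpin1 are above their mean in all 6 SMN libraries, and Cebpd, Lpl and Scd2 are below theirs in the same 6.

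In the main fit, which leaves the media batch out, a small group of lipid genes differed between Bap1KO and WT. The 2 groups overlapped for Pparg and most of the set. The fit within the shared media batches, given below, called 17 of 33 members, beside 33.9% of the genes it tested. In Bap1KO against WT, the droplet coat gene Plin4 was 2.29-fold higher, the fatty acid binding protein gene Fabp5 was 2.27-fold lower, and the elongase gene Elovl6 was 1.81-fold lower. The acyltransferase gene Dgat1 was 1.28-fold lower. These 4 of 34 tested members passed the test (1 higher and 3 lower, 11.8%), beside 9.72% of the 16597 genes tested (3.36% higher and 6.37% lower), so their share is close to the background. The median log2 difference of the members was -0.04, and that of all genes tested was 0.00.

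Because WT and Bap1KO were grown in the same 3 media batches, the comparison was also made within batches, with the batch as a block. That fit called 17 of 33 members (8 higher and 9 lower, 51.5%), and 33.9% of the 15380 genes it tested (15.4% higher and 18.5% lower). The unblocked fit called 2 members without WT replicate 1 and 3 without Bap1KO replicate 2. In the ratio of Bap1KO to WT within each batch, 11 members were higher in all 3 batches, 11 were lower in all 3 and 12 went both ways. The groups did not overlap for 12 of 34 members (35.3%), beside 32.3% of all genes tested.

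The adipogenic regulators gave no call among 8 in the main fit over all 12 libraries. Pparg, the nuclear receptor at the centre of adipogenesis, was at 7.68, 11.9 and 12.3 CPM in WT replicates 1, 2 and 3 and at 7.03, 13.2 and 11.3 CPM in Bap1KO. The groups overlapped nearly completely (log2 difference -0.02 ± 0.25, SE; edgeR adjusted p = 0.981), and the first replicate was the lowest in each. Cebpa, its partner factor, was at 21.9, 23.9 and 21.8 CPM in WT and at 31.5, 28.6 and 30.2 in Bap1KO. All Bap1KO libraries lay above all WT libraries, with a log2 difference of 0.42 ± 0.16 (adjusted p = 0.125, and 0.0021 with the media batch as block). Cebpa was also called higher with only the 6 libraries compared.

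Cebpb, the early C/EBP gene, was at 94.0, 80.2 and 77.2 CPM in WT and 75.2, 54.1 and 67.4 in Bap1KO. It was lower in each batch, with a log2 difference of -0.35 ± 0.24 (adjusted p = 0.377; 0.00578 with the block). Cebpd, the other early factor, was at 115, 95.02 and 103 CPM in WT and 119, 59.4 and 94.9 in Bap1KO, and the groups overlapped (adjusted p = 0.772). Klf15, a Krüppel-like factor that acts upstream of Pparg, was at 2.83, 2.17 and 2.74 CPM in WT and 2.64, 0.961 and 1.42 in Bap1KO (-0.62 ± 0.43, adjusted p = 0.393; 0.0433 with the block). Zfp423 and Ebf2, factors of preadipocyte commitment, had log2 differences of -0.14 and -0.06. The exons of Cebpb and Cebpd overlap those of Tmem189 and Spidr on the opposite strand by 312 of 1504 and 562 of 3746 bases, and whether counting used strand is not given in the sources used here, so these counts are uncertain by what the neighbours add.

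Among adipokines, Cfd, the gene of complement factor D (adipsin), was at 6.31, 8.99 and 9.72 CPM in WT and 2.89, 3.28 and 5.26 in Bap1KO. Each Bap1KO library was below each WT library, and the log2 difference was -1.13 ± 0.54 (adjusted p = 0.204, and 0.000413 with the block). Cfd was also called lower with no filter on low counts and with only the 6 libraries compared. Adiponectin (Adipoq) was at 2.31, 4.59 and 4.66 CPM in WT and 3.16, 4.36 and 5.19 in Bap1KO, with overlapping groups (adjusted p = 0.862). Retn, the resistin gene, had 29 reads in WT and 35 in Bap1KO, a ratio of 1.26 with a 95% counting interval of 0.748 to 2.13. That interval covers counting error only.

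Fabp5, which carries fatty acids inside cells, gave the clearest decrease among genes of fatty acid uptake and binding. It was at 146, 117 and 128 CPM in WT and 57.7, 52.7 and 61.7 in Bap1KO, so the groups were far apart relative to their spread. The log2 difference was -1.18 ± 0.23 (edgeR adjusted p = 0.0101), and the call held in all 18 alternative settings. Its close paralog Fabp4, the adipocyte fatty acid binding protein gene, was at 19.9, 19.8 and 24.2 CPM in WT and 12.1, 14.7 and 23.7 in Bap1KO; the groups overlapped (adjusted p = 0.534; 0.0395 with the block, with a log2 difference of -0.37). Cd36, a fatty acid transporter gene, had 1.02 ± 0.736 CPM in WT and 1.88 ± 0.698 in Bap1KO and was higher in every batch (adjusted p = 0.286; 0.0116 with the block). Lpl, the lipase that frees fatty acids from lipoproteins, ranged from 93.5 to 215 CPM in WT and from 70.3 to 265 in Bap1KO, wider within groups than between them.

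The 5 tested droplet coat genes all had positive differences, from 0.17 to 1.95 on the log2 scale with a median of 0.96. Only Plin4 passed in the main fit over all 12 libraries. Plin4 was at 2.75, 3.42 and 4.26 CPM in WT and 6.06, 7.14 and 10.7 in Bap1KO. No library overlapped, the log2 difference was 1.20 ± 0.22 (adjusted p = 0.00766), and the call held in all 18 alternatives. Plin1, the perilipin of large adipocyte droplets, was at 1.08, 0.977 and 1.69 CPM in WT and 1.71, 1.95 and 3.65 in Bap1KO, with the highest WT value just under the lowest Bap1KO value.

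Its log2 difference was 0.96 ± 0.51 (adjusted p = 0.254; 0.00571 with the block). Cidec, which promotes droplet growth by fusion, had 32 reads in WT and 121 in Bap1KO, a ratio of 3.95 with a 95% counting interval of 2.65 to 6.02. The test gave 1.95 ± 0.69 (adjusted p = 0.0962, and 0.00675 with the block). Cidec was also called with DESeq2, with no filter on low counts, with only the 6 libraries compared and without Smn1OE replicate 3. Plin2 was at 132, 182 and 142 CPM in WT and 134, 235 and 178 in Bap1KO, overlapping (adjusted p = 0.53; 0.023 with the block). Plin3, the perilipin of small new droplets, differed by 0.17 (adjusted p = 0.159; 0.0215 with the block). With the media batch as block, all 5 tested droplet coat genes were therefore called higher, beside 15.4% of all genes that fit tested.

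Triglyceride synthesis changed little. Dgat1, which catalyses the last step to triglyceride, was at 33.1, 34.6 and 34.1 CPM in WT and 25.1, 25.0 and 29.6 in Bap1KO. The log2 difference was -0.35 ± 0.10 (adjusted p = 0.0453, and 0.00621 with the media batch as block), and Dgat1 was lower in each batch. The call was lost in 11 of 18 alternatives, 8 of which each left out 1 library, with adjusted p up to 0.128. The libraries were each of the 3 WT, Bap1KO replicates 1 and 2, Smn1OE replicates 1 and 3 and Smn1OE_K186R replicate 3. Dgat2, Agpat2, Gpam and Lpin1 differed by 0.06, -0.09, -0.03 and -0.20 with adjusted p from 0.437 to 0.911.

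No lipase gene passed the unblocked test: Pnpla2, the gene of adipose triglyceride lipase, differed by 0.21 (adjusted p = 0.534; 0.0479 with the block), Lipe, the hormone-sensitive lipase gene, by -0.38 (adjusted p = 0.37), and Mgll, the monoglyceride lipase gene, by 0.05 (adjusted p = 0.851). Lipe was below WT in all 3 batches. Its exons overlap an antisense gene, 4732471J01Rik, by 918 of 5886 bases.

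In fatty acid synthesis, Elovl6, which lengthens palmitate, fell. It was at 25.7, 22.4 and 19.6 CPM in WT and 11.9, 14.6 and 10.9 in Bap1KO, without overlap. The log2 difference was -0.86 ± 0.18 (adjusted p = 0.0125, and 0.000358 with the media batch as block). The call was lost without WT replicate 1 or without Bap1KO replicate 3 (adjusted p up to 0.0625).

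The fatty acid synthase gene Fasn, the acetyl-CoA carboxylase gene Acaca and Acly stayed within 0.12 on the log2 scale (adjusted p from 0.408 to 0.707). The desaturase gene Scd1 was at 207, 197 and 256 CPM in WT and 185.6, 140 and 191 in Bap1KO, all below WT (-0.35 ± 0.23, adjusted p = 0.361; 0.00411 with the block). Scd2 was at 517, 373 and 429 CPM in WT and 476, 283 and 338 in Bap1KO, lower in each batch though the groups overlapped (adjusted p = 0.371; 0.00948 with the block). Scd1 and Scd2, like Fabp4 and Fabp5, are close paralogs, and reads they share could be split or dropped in counting.

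**Figure D2:**
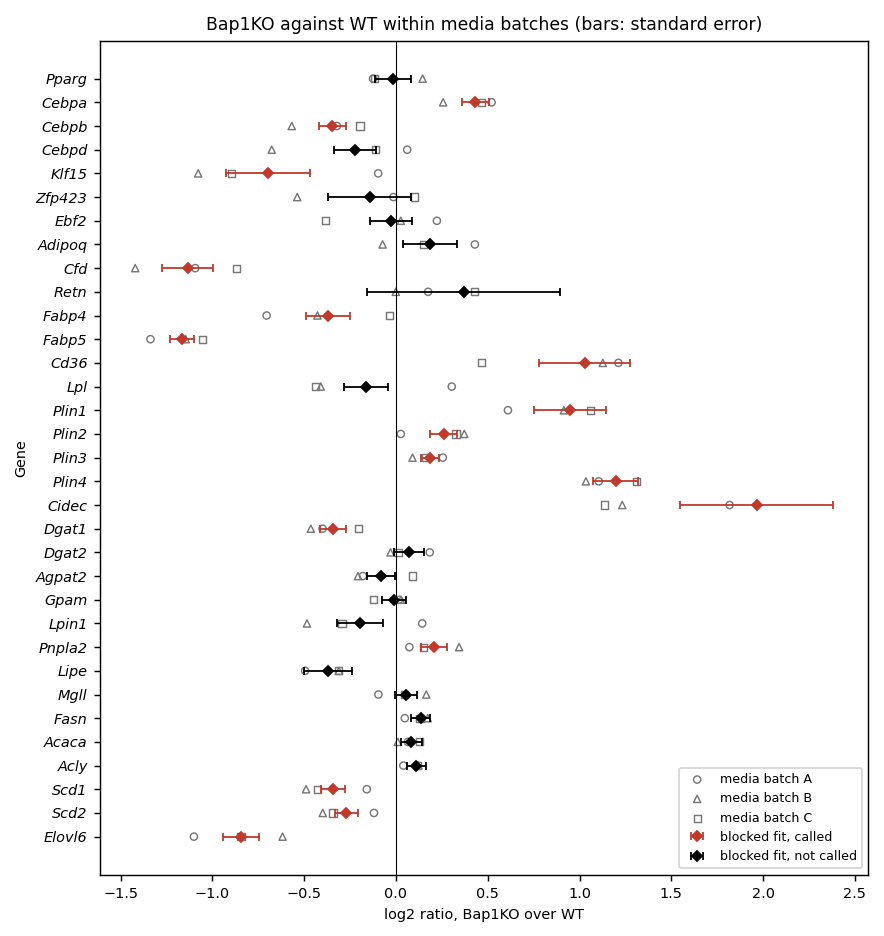
Log2 ratio of Bap1KO to WT (horizontal axis) for 33 members (rows; Ppargc1a, with 2 reads in Bap1KO, is left out). Open grey symbols are the ratios of CPM + 0.125 within media batches A, B and C, and diamonds with bars are the estimate and SE of the fit with media batch as block, red where called. Plin4 lies between 1.03 and 1.31 in the 3 batches and Fabp5 between -1.34 and -1.05, whereas Pparg lies on either side of 0.

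Cells with an SMN vector differed from Bap1KO cells in a mixed manner: the ubiquitous droplet coat gene Plin2 and the lipin gene Lpin1 rose, while the C/EBP genes, adiponectin, Lpl, the desaturase genes and Dgat2 fell. In Smn1OE, Plin2 was 2.89-fold higher, Lpin1 1.99-fold higher, Cebpd 3.63-fold lower, Lpl 3.53-fold lower and Scd1 2.43-fold lower than in Bap1KO. In Smn1OE_K186R the same genes were 2.53-fold higher, 1.91-fold higher, 3.03-fold lower, 3.13-fold lower and 1.92-fold lower. Pparg was not called in either. These comparisons share the 3 Bap1KO libraries.

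In Smn1OE against Bap1KO, 16 of 34 tested members passed (5 higher and 11 lower, 47.1%), beside 33.5% of all genes tested (15.8% higher and 17.7% lower). In Smn1OE_K186R against Bap1KO, 15 of 34 passed (4 higher and 11 lower, 44.1%), beside 32.6% (16.1% higher and 16.5% lower). The members' median log2 difference was -0.39 and -0.45, and that of all genes was -0.01 in each. The groups did not overlap for 19 and 20 members, beside 48.6% and 43.7% of all genes. Without Ppargc1a, which the filter on low counts kept only through the groups where it was high, the counts were 15 of 33 (4 higher and 11 lower, 45.5%) and 14 of 33 (3 higher and 11 lower, 42.4%). With it, and without Bap1KO replicate 2, the library nearest the SMN groups, each count was 16.

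Among the regulators, Cebpd fell most. It was at 27.9, 32.9 and 14.4 CPM in Smn1OE and 39.9, 33.3 and 16.9 in Smn1OE_K186R, below every Bap1KO library (59.4 to 119 CPM). The log2 differences were -1.86 ± 0.35 (adjusted p = 0.00244) and -1.60 ± 0.34 (adjusted p = 0.00536). Cebpb was at 44.9, 34.9 and 23.1 CPM in Smn1OE and 48.1, 32.5 and 26.6 in Smn1OE_K186R, again below every Bap1KO library. Its differences were -0.93 ± 0.24 (adjusted p = 0.0118) and -0.87 ± 0.24 (adjusted p = 0.0165); the latter call was lost without Bap1KO replicate 1 or Smn1OE_K186R replicate 2 or 3 (adjusted p up to 0.0573). Replicate 3 was the lowest of its group for each of these genes.

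Cebpa was at 23.7, 17.7 and 16.5 CPM in Smn1OE and 23.8, 14.99 and 18.02 in Smn1OE_K186R. It fell by 0.64 ± 0.16 (adjusted p = 0.0108) and 0.67 ± 0.16 (adjusted p = 0.0094) from Bap1KO, and was not called against WT (adjusted p = 0.265 and 0.216). Pparg was at 11.98, 14.99 and 16.3 CPM in Smn1OE and 9.10, 14.5 and 13.2 in Smn1OE_K186R, overlapping Bap1KO (0.46 ± 0.25, adjusted p = 0.176, and 0.23 ± 0.25, adjusted p = 0.512). Klf15 was at 2.32, 0.865 and 1.14 CPM in Smn1OE and 1.74, 0.800 and 0.998 in Smn1OE_K186R, inside the Bap1KO range for 4 of 6 libraries (adjusted p = 0.735 and 0.404).

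Ppargc1a, the coactivator gene of mitochondrial and thermogenic programmes, was barely read outside the SMN groups. It had 4, 1 and 9 reads in WT and 1, 0 and 1 in Bap1KO, whereas Smn1OE had 13, 26 and 12 and Smn1OE_K186R had 22, 46 and 10. Every SMN library was above every other library. The ratio of summed reads to Bap1KO was 25.7 (95% counting interval 6.75 to 218) and 38.9 (10.4 to 327). Since it was tested only because it was high in the SMN groups, its adjusted p is not used, and its mean stayed at 0.270 and 0.396 CPM there.

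Adipoq was at 2.52, 1.58 and 1.17 CPM in Smn1OE and 1.91, 0.872 and 0.885 in Smn1OE_K186R, each below the lowest Bap1KO library (3.16). It fell by 1.26 ± 0.39 on the log2 scale (adjusted p = 0.0256) and by 1.79 ± 0.39 (adjusted p = 0.00597). The call in Smn1OE was lost without Bap1KO replicate 3 or Smn1OE replicate 2 or 3 (adjusted p up to 0.0956). Cfd was at 3.94, 0.925 and 1.21 CPM in Smn1OE and 2.39, 0.523 and 1.47 in Smn1OE_K186R, with adjusted p of 0.225 and 0.0765 against Bap1KO. Leaving out replicate 1 of Smn1OE gave adjusted p as low as 0.0262 for the first and leaving out replicate 1 of Smn1OE or of Smn1OE_K186R also gave a call for the second (adjusted p as low as 0.00363 over its alternatives). Retn had 18 and 6 reads in the SMN groups against 35 in Bap1KO (ratio 0.518, 95% counting interval 0.276 to 0.939, and 0.171, 0.0587 to 0.411; adjusted p = 0.348 and 0.0521). For Retn in Smn1OE_K186R, leaving out Smn1OE replicate 3 gave a call, with adjusted p as low as 0.0235 over its alternatives. DESeq2, no filter on low counts and the media batch as a random effect also gave a call.

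Lpl fell from 155 ± 99.9 CPM in Bap1KO (SD, n = 3) to 48.9, 45.5 and 37.5 in Smn1OE and to 69.4, 43.0 and 36.6 in Smn1OE_K186R. All SMN values were below the lowest Bap1KO value of 70.3, which a single Smn1OE_K186R library came near. The log2 differences were -1.82 ± 0.42 (adjusted p = 0.00754) and -1.65 ± 0.42 (adjusted p = 0.0125), and the latter was lost without Bap1KO replicate 1 (adjusted p = 0.0579). Fabp4, Fabp5 and Cd36 passed in neither comparison. Fabp5 was at 29.4, 56.0 and 32.8 CPM in Smn1OE and 27.7, 48.9 and 36.2 in Smn1OE_K186R, with replicate 2 the highest in each (adjusted p = 0.0908 and 0.0625). It was called lower in Smn1OE without replicate 2 of that group and in Smn1OE_K186R without replicate 2 of either SMN group. Fabp4 was at 17.4, 12.6 and 8.79 CPM in Smn1OE and 15.99, 7.91 and 8.30 in Smn1OE_K186R (adjusted p = 0.378 and 0.135). The second was called without Smn1OE_K186R replicate 1 and with no filter on low counts (adjusted p as low as 0.0204).

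The droplet coat genes split. Plin2 was at 572, 400 and 606 CPM in Smn1OE and 506, 318 and 557 in Smn1OE_K186R, all above the highest Bap1KO library (235). It rose by 1.53 ± 0.25 (adjusted p = 0.0012) and 1.34 ± 0.24 (adjusted p = 0.00252), and both calls held in all 18 alternatives. Replicate 2 was the lowest in each SMN group, and Bap1KO replicate 2 was the highest of its own.

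Plin3 fell from 98.5 ± 3.96 CPM in Bap1KO to 74.8 ± 5.17 in Smn1OE and 76.9 ± 3.52 in Smn1OE_K186R (adjusted p = 0.00217 and 0.004). Plin4 was at 5.94, 4.46 and 5.17 CPM in Smn1OE and 4.71, 4.14 and 4.31 in Smn1OE_K186R, between the WT and Bap1KO means of 3.48 and 7.98. Its log2 differences from Bap1KO were -0.62 ± 0.22 (adjusted p = 0.0473) and -0.86 ± 0.22 (adjusted p = 0.0122). The Smn1OE call was lost in 11 of 18 alternatives (adjusted p up to 0.224), among them those without Bap1KO replicate 3, WT replicate 2 and each of the 6 SMN libraries. The Smn1OE_K186R call was lost without Bap1KO replicate 3 (adjusted p = 0.0548). Plin1 was at 2.08, 1.12 and 0.511 CPM in Smn1OE and 1.73, 0.553 and 0.885 in Smn1OE_K186R, and Cidec had 50 and 43 reads.

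Neither Plin1 (adjusted p = 0.163 and 0.0918) nor Cidec (0.149 and 0.103) was called against Bap1KO. Leaving out Smn1OE_K186R replicate 1 gave a call for Plin1 (adjusted p as low as 0.0206 over its alternatives) and leaving out its replicate 2 gave one for Cidec (0.0309), both in Smn1OE_K186R. Plin1 was also called there with no filter on low counts. Plin5, which couples droplets to mitochondria in oxidative cells, had 11 and 12 reads against 2 in Bap1KO, a ratio of 5.53 (95% counting interval 1.21 to 51.4) and 5.98 (1.33 to 55.0), with no test.

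**Figure D3:**
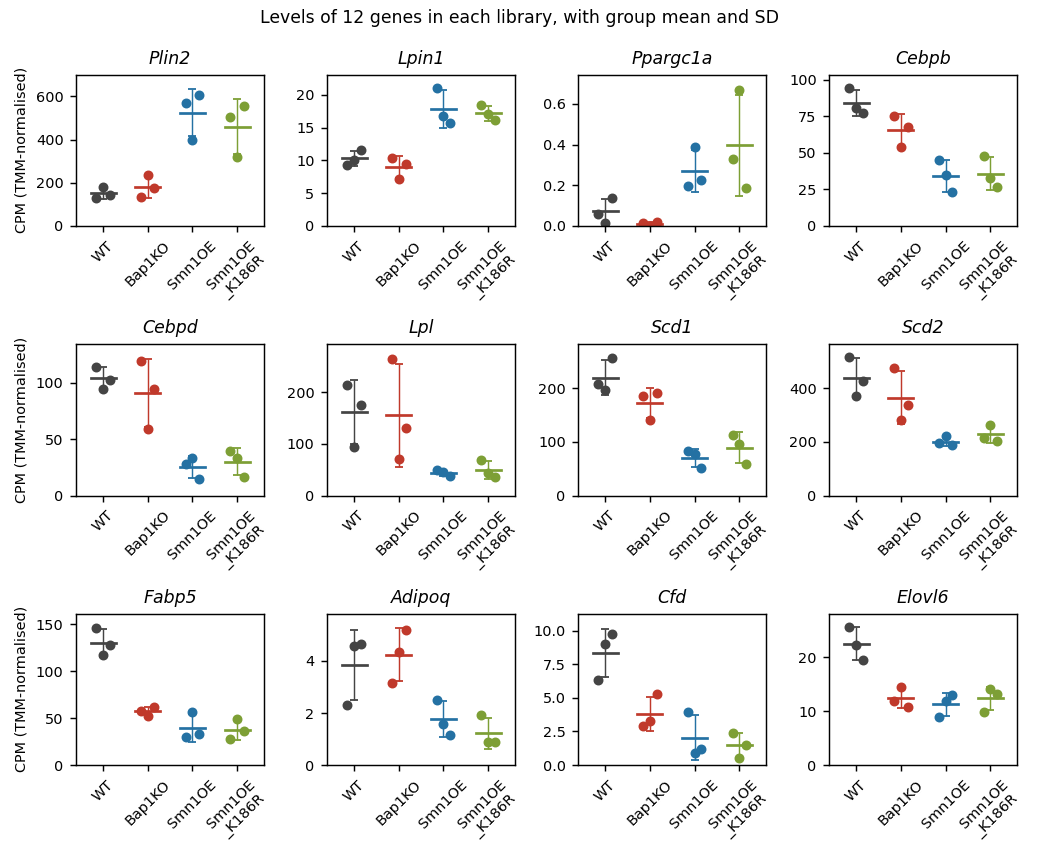
CPM in each library (points) for 12 members, with a horizontal line at the mean and a bar of 1 SD for each group of 3; each panel has its own linear axis from 0. Plin2 is higher in all 6 SMN libraries (318 to 606 CPM) than in the other 6 (132 to 235), and Fabp5 is lower in all 9 libraries given 4-OHT than in WT.

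In triglyceride synthesis, Lpin1, whose product makes diacylglycerol and also acts as a coregulator, was at 21.1, 16.8 and 15.7 CPM in Smn1OE and 18.4, 17.01 and 16.1 in Smn1OE_K186R, against 8.98 ± 1.62 in Bap1KO. It rose by 0.99 ± 0.15 (adjusted p = 0.000975) and 0.94 ± 0.15 (adjusted p = 0.00146). Dgat2, the other last-step enzyme gene, went the opposite way, from 14.4 ± 1.52 to 7.84 ± 1.27 and 8.32 ± 1.71 CPM (-0.88, adjusted p = 0.00226, and -0.79, adjusted p = 0.0041). Dgat1, Agpat2 and Gpam were not called in either comparison, with differences between -0.26 and 0.06.

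Of the lipases, Pnpla2 was at 51.4 ± 7.34 CPM in Smn1OE, 46.5 ± 9.90 in Smn1OE_K186R and 35.4 ± 8.01 in Bap1KO. It passed in Smn1OE (0.54 ± 0.19, adjusted p = 0.0445), a call lost in 8 leave-one-out fits (adjusted p up to 0.173), those without Bap1KO replicate 1 or 3, any Smn1OE replicate, Smn1OE_K186R replicate 1 or WT replicate 2 or 3. In Smn1OE_K186R it did not pass (0.39, adjusted p = 0.128), except without Bap1KO replicate 2 or Smn1OE_K186R replicate 2 or with no filter on low counts (as low as 0.0452). Mgll fell by 0.46 (adjusted p = 0.0162) and 0.42 (adjusted p = 0.0266). Its calls were lost without Bap1KO replicate 2 or 3 in each comparison, without Smn1OE replicate 1 in the first and without Smn1OE_K186R replicate 1 or 3 in the second (adjusted p up to 0.0625 and 0.0919). The second was also lost with only the 6 libraries compared. Lipe was at 2.56 ± 0.825 and 2.64 ± 0.680 CPM against 3.72 ± 0.553 in Bap1KO (adjusted p = 0.128 and 0.159).

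In fatty acid synthesis the desaturase genes fell and the synthase gene rose slightly. Scd1 was at 82.6, 77.7 and 51.8 CPM in Smn1OE and 113, 96.6 and 58.2 in Smn1OE_K186R, all below the lowest Bap1KO library (140). Its differences were -1.28 ± 0.23 (adjusted p = 0.00219) and -0.94 ± 0.23 (adjusted p = 0.0101). Scd2 was at 196, 220 and 189 CPM in Smn1OE and 216, 265 and 204 in Smn1OE_K186R, below Bap1KO without overlap (-0.86, adjusted p = 0.00409, and -0.68, adjusted p = 0.013). The calls for Scd1 and Scd2 held in all 18 alternatives of each comparison.

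Fasn was at 213 ± 19.3 and 213 ± 16.8 CPM against 177 ± 10.4 in Bap1KO. It rose by 0.27 in each (adjusted p = 0.0282 and 0.0295), calls lost without Bap1KO replicate 1 or 3, or without replicate 2 or 3 of the SMN group concerned (adjusted p up to 0.132 and 0.123). Both were also lost with no filter on low counts, and the second with only the 6 libraries compared. Acly, Acaca and Elovl6 were not called. Elovl6 was at 8.93, 11.9 and 12.9 CPM in Smn1OE and 9.88, 14.1 and 13.2 in Smn1OE_K186R, overlapping the Bap1KO values of 10.9 to 14.6 (adjusted p = 0.558 and 0.976). Acaca was called lower in Smn1OE without Smn1OE_K186R replicate 2 (adjusted p = 0.0436), and the preadipocyte gene Ebf2 was called higher in Smn1OE without Bap1KO replicate 2 (0.0324) and in Smn1OE_K186R without Bap1KO replicate 2 or WT replicate 1 (as low as 0.0221).

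**Figure D4:**
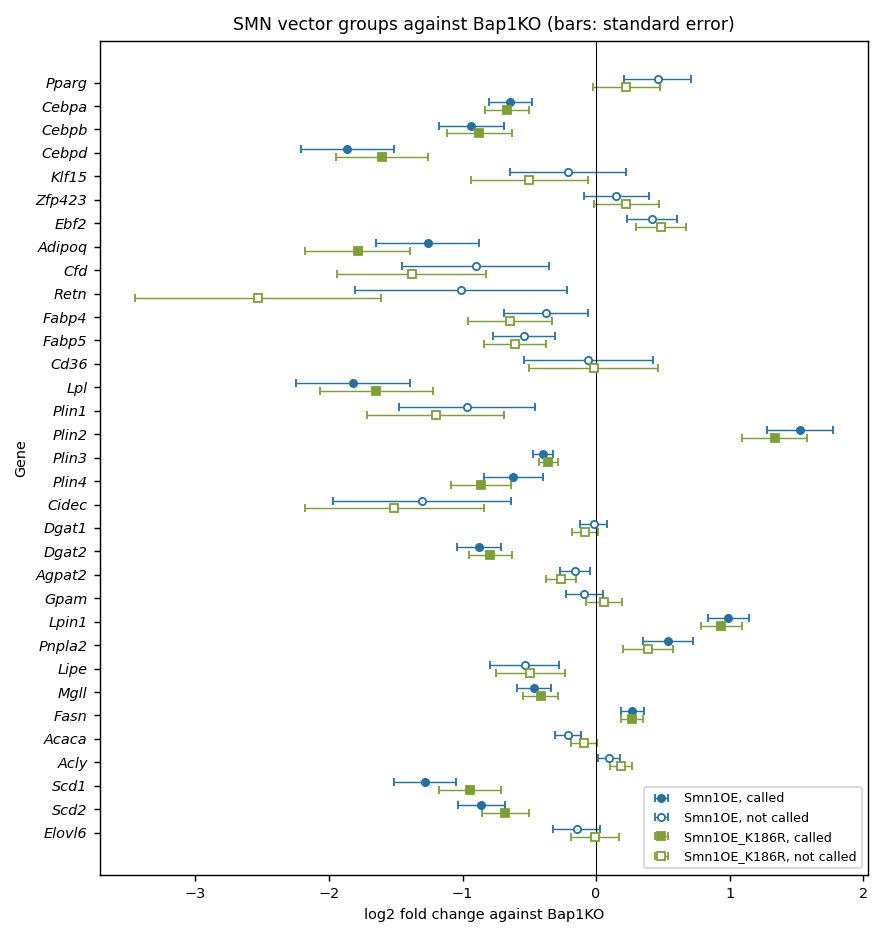
Log2 fold change against Bap1KO (horizontal axis) of 33 members (rows; Ppargc1a, with 2 reads in Bap1KO, is left out) in Smn1OE (circles) and Smn1OE_K186R (squares); bars are 1 SE, and filled symbols are called. The groups share the 3 Bap1KO libraries, so their symbols are not independent; Plin2 and Lpin1 lie above 0 and Cebpd, Lpl, Scd1 and Adipoq below 0 for each.

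The K186R vector and the unchanged SMN vector were compared with each other within shared media batches, and no member separated them. No gene of 16597 passed (edgeR; DESeq2 also called 0), so percent called was 0, and 388 genes (2.34%) had an unadjusted p under 0.05, none of them a member. With the media batch as block, 35 genes passed (0.221%; 0.215% higher and 0.00633% lower), again with no member. The members' median log2 difference was 0.02, and no member's groups were free of overlap, beside 6.78% of all genes.

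Individual differences carry the error of 3 libraries a group and do not show that the vectors act alike. Adipoq differed by -0.52 ± 0.39 and was lower with K186R in every batch, Scd1 by 0.34 ± 0.23, Plin2 by -0.19 ± 0.24, Pparg by -0.23 ± 0.25 and Cebpd by 0.26 ± 0.34, all with adjusted p = 0.997. Across the 3 batches, 5 members were higher with K186R each time, 7 were lower each time and 21 went both ways; Retn was lower in 2 batches and had no read in either library of the other. For Ppargc1a the ratio of reads, 78 to 51, was 1.51 with a 95% counting interval of 1.05 to 2.20. That interval leaves out the spread between libraries. Smn1OE_K186R replicate 2 gave 46 of the 78 reads, and the log2 ratios in batches D, E and F went both ways (0.51, 0.63 and -0.17).

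Set against WT, the SMN groups combined the differences above. In Smn1OE, 20 of 34 members passed (6 higher and 14 lower, 58.8%, beside 50.4% of all genes, 23.8% higher and 26.6% lower), and in Smn1OE_K186R 23 passed (6 higher and 17 lower, 67.6%, beside 50.5%, 24% higher and 26.5% lower). Without Ppargc1a these were 19 of 33 (5 higher and 14 lower, 57.6%) and 22 of 33 (5 higher and 17 lower, 66.7%). The members' medians were -0.24 and -0.30. The groups did not overlap for 23 and 25 members, beside 62.4% and 58.4% of all genes. These comparisons share the WT libraries, and vector, deletion, media batch and sex of the cells cannot be told apart in them.

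Fabp5 was 3.31-fold and 3.47-fold lower than in WT (adjusted p = 0.000144 and 0.000121), and Cebpd 4.14-fold and 3.46-fold lower (0.000559 and 0.00122). Cfd, which the main fit did not call in any comparison with Bap1KO, was 4.10-fold and 5.71-fold lower than in WT (0.00933 and 0.00326), with no library overlapping. Elovl6 was 2.00-fold and 1.82-fold lower (0.000705 and 0.00171). Plin2 was 3.47-fold and 3.04-fold higher (0.000148 and 0.000293).

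Calls near the threshold were less steady. Klf15 passed only in Smn1OE_K186R (-1.12 ± 0.44, adjusted p = 0.0487) and lost that call in 9 of 18 alternatives (up to 0.152), 7 of them leaving out a library: Bap1KO replicate 3, Smn1OE replicate 3, Smn1OE_K186R replicate 2 or 3 or any WT replicate. Plin4 was higher than WT in Smn1OE (0.58 ± 0.22, adjusted p = 0.0469), a call lost in 8 leave-one-out fits (up to 0.172), namely without Bap1KO replicate 2, Smn1OE replicate 1 or 3, any Smn1OE_K186R library or WT replicate 1 or 2. Fabp4 passed in Smn1OE_K186R (-0.99, adjusted p = 0.0212), lost when WT replicate 3 or Smn1OE_K186R replicate 2 or 3 was left out (up to 0.081). Adipoq passed in both (-1.13 and -1.65, adjusted p = 0.0276 and 0.00428), and the first call was lost when replicate 2 or 3 of WT or of Smn1OE was left out (up to 0.101). Plin3 differed by -0.23 and -0.19 on the log2 scale (adjusted p = 0.0202 and 0.0464). The first call was lost in 5 of 18 alternatives (up to 0.0933), among them those without Smn1OE replicate 3 or WT replicate 2 or 3. The second was lost in 14 of 18 (up to 0.16), among them those without Bap1KO replicate 1 or 3, Smn1OE replicate 2, any Smn1OE_K186R library or WT replicate 2 or 3. In Smn1OE_K186R, the calls of Acly, Agpat2, Lipe, Mgll and Pnpla2 were lost under 2, 3, 1, 4 and 3 of 18 alternatives, and in Smn1OE that of Mgll under 2. Ppargc1a had 51 and 78 reads against 14 in WT, ratios of 3.83 (95% counting interval 2.08 to 7.48) and 5.79 (3.25 to 11.1).

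The main fit over all 12 libraries called 9 tested members in no comparison: Acaca, Cd36, Cidec, Ebf2, Gpam, Plin1, Pparg, Retn and Zfp423. It called 24 others beside Ppargc1a in at least 1. The rest of the pathway was read from 5 further lists, whose counts stand beside 3.36% higher and 6.37% lower of all genes tested in Bap1KO against WT. These counts come from the main fit without the media batch. Results with the media batch as block, which called 33.9% of the genes it tested, are not given for these lists. In Bap1KO against WT, 24 genes of lipogenic control and fatty acid handling were tested, of which 0 rose and 5 fell; the smallest adjusted p belonged to the desaturase gene Fads1 (-0.85, 0.00416), the fatty acid transporter gene Slc27a1 (-0.59, 0.00726) and the acetyl-CoA carboxylase gene Acacb (-1.20, 0.00736). Of 15 genes of fatty acid oxidation and PPAR targets, 2 rose and 3 fell. Those that rose were the carnitine transferase gene Cpt1a (0.52, adjusted p = 0.0128) and Angptl4 (0.74, 0.0139), an inhibitor of lipoprotein lipase. Those that fell were the acyl-CoA dehydrogenase genes Acadl (-0.56, 0.000899) and Acadm (-0.56, 0.00562) and Ucp2 (-0.74, 0.03).

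In the same comparison and the same unblocked fit, 1 of 15 other adipogenic activators rose (Ebf1, 0.37, adjusted p = 0.0296) and none of 11 tested adipogenic repressors passed. Of 16 other triglyceride and droplet genes, Mogat2 rose (0.62, adjusted p = 0.0475), and Lipa, the lysosomal lipase gene, and Agpat3 fell (-0.32, 0.017, and -0.37, 0.0336). Median log2 differences of the 5 lists lay between -0.16 and 0.09, beside 0.00 for all genes.

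Against Bap1KO, 15.8% of all genes tested were higher and 17.7% lower in Smn1OE, and 16.1% and 16.5% in Smn1OE_K186R, and the counts of the 5 lists are to be read against these shares. In Smn1OE against Bap1KO, 4 of the 24 lipogenic genes rose, a share near that of all genes, among them Slc27a1 (0.81, adjusted p = 0.000455). In the same comparison 7 fell, among them Srebf1, the gene of the sterol-regulated activator of lipogenesis (-0.42, 0.00282). In Smn1OE_K186R against Bap1KO, 2 rose and 10 fell. Among oxidation genes and PPAR targets 2 rose and 6 fell in Smn1OE, and 2 rose and 5 fell in Smn1OE_K186R. Pdk4, the kinase that diverts pyruvate from the citric acid cycle, rose by 2.42 (adjusted p = 0.00157) and 2.19 (0.00283), and Cpt2 fell by 0.78 (0.000204) and 0.77 (0.0003).

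Of 15 other adipogenic activators, 1 rose and 6 fell in Smn1OE, and 1 rose and 3 fell in Smn1OE_K186R, the latter near the share of all genes that fell. Klf5, a factor that cooperates with the early C/EBP proteins, rose by 2.06 (adjusted p = 6.58e-05) and 1.81 (0.000143), whereas Klf4 fell by 0.77 (0.00197) and 0.53 (0.0122) and Bmp4 by 2.88 (0.00527) and 2.14 (0.018). Of 11 repressors, 3 rose and 4 fell in Smn1OE and 1 rose and 3 fell in Smn1OE_K186R; Sirt1 rose by 0.83 (0.00199) and 0.80 (0.00276), and Zfp521, which holds back Zfp423 and Ebf factors, fell by 1.23 (0.008) and 0.91 (0.0313). Of 16 triglyceride and droplet genes, 7 rose and 4 fell, and 3 rose and 3 fell; Abhd5, the activator of adipose triglyceride lipase, rose by 0.44 (0.000881) and 0.30 (0.00609), and G0s2, the inhibitor of that lipase, fell by 0.97 (0.00725) and 1.09 (0.00455). No gene of the 5 lists was called between the SMN groups.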

How the data were processed

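RNA-seq counts per gene were deposited as 1 file for each library. Per the submitters' processing notes, the authors' build was GRCm39 and the tools named there are STAR 2.6.1, HTSeq 0.9.1, DESeq2, cutadapt 1.4.2 and CASAVA 1.8.2, and the annotation release and the strand setting are not given in the sources used here. The 5 closing rows that name no gene (11.1 to 14.6% of each file's total) were left out. Identifiers were matched to GENCODE M21 symbols (55154 of 55335), which also gave exon lengths. CPM is the count divided by the TMM-adjusted library total, scaled to 1e+06. Counts were tested with edgeR 4.0.16 (TMM scaling, filterByExpr with a minimum count of 10, quasi-likelihood test over all 12 libraries, 8 residual degrees of freedom), with Benjamini-Hochberg adjustment over 16597 genes and calls at adjusted p under 0.05, in 6 comparisons. The SE is the log2 difference divided by the square root of F. Counting intervals are exact binomial (95%). The scripts were tested on simulated data.

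The labels give WT and Bap1KO replicates of the same number a shared media batch, likewise the SMN groups; deviations from group means correlated at 0.314 to 0.533 and 0.374 to 0.523 within shared batches, and at -0.442 to 0.069 and -0.356 to -0.055 across batches. Alternatives were DESeq2 1.42.0, RLE and upper-quartile scaling, no filter, only the 6 libraries compared, the media batch as block (or, across batches, limma 3.58.1 voom with the batch as random effect, correlation 0.453) and leaving out each library. Members tested and called with a log2 difference of at least 1 in some comparison, together with Pparg, Cebpa, Adipoq, Plin1 and Fabp4, are given library by library (Ppargc1a in reads, and left out of the plots of differences); for the other lists, up to 3 genes for each comparison and direction with the smallest adjusted p were eligible to be named. The members and lists were chosen with earlier results of these data known.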

Additional observations from a re-analysis of the deposited data

How the results depend on the processing

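No member's difference changed direction past the threshold in 3664 recomputed values: 3464 kept their side of the threshold, 125 lost a call and 75 gained one, and 60 of 204 member results changed under at least 1 alternative. In Bap1KO against WT, the count of called members moved from 4 to 17 with the replicate block (media batch), whose pairing comes from the labels, and to 2 without WT replicate 1. Leaving out 1 library at a time gave 2 to 4 called members in Bap1KO against WT, 11 to 16 in Smn1OE and 12 to 17 in Smn1OE_K186R against Bap1KO, 16 to 20 and 17 to 23 against WT, and 0 between the SMN groups. The block changed no call between the SMN groups. For all genes tested, the count in Bap1KO against WT rose from 1614 to 5207 with the block. These counts include Ppargc1a. Members under about 1 CPM (Ppargc1a, Retn, Cidec, Plin5) are limited by their few reads.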
